A study of Rattus norvegicus with 5 samples.

Results

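The cytosolic ribosomal protein genes were taken from 5 Agilent 1-colour rat arrays as the non-control spots whose gene name begins with Rpl or Rps followed by a digit, or is Rplp0, Rplp1, Rplp2 or Rpsa, with the S6 kinase genes left out. The rule found 126 spots, 108 probes and 72 genes, of 43379 spots, 41012 probes and 35654 genes or transcripts on the array. Of the 72 genes, 31 encode proteins of the small subunit (43 probes) and 41 carry large subunit names (65 probes). All 108 probes were well above background on all 5 arrays, so no member was lost to a filter on dim probes. The label rests on the gene names by which the members were chosen, and signal above background does not test it. There is 1 exception of kind: Rpl3l encodes a paralog of Rpl3 that is known from striated muscle.

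The cells were Fao, a cloned line from a rat hepatoma that keeps many functions of hepatocytes. They were grown for 2 days with 10% fetal bovine serum and kept for 16 h without it in 10 nM dexamethasone, a synthetic glucocorticoid. The 5 groups are cells taken at 0, 15, 30, 45 and 60 min of 10 nM insulin, with 1 array per group, and the dexamethasone starvation is common to them all. Arrays of time-matched cells without insulin were not analysed here, and no group has a replicate, so a difference between single times carries no p-value.

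Ribosomal proteins and ribosomal RNA make up the 2 subunits of the ribosome, and their messages are among the most abundant in a growing cell. Many of these messages begin with a C followed by a run of pyrimidines, the 5′ terminal oligopyrimidine (TOP) tract. Through this tract mTORC1, a kinase complex that insulin activates, raises the translation of existing messages, mainly through the repressor Larp1. Total RNA, as measured here, shows the amount of message and not its translation. The comparison asks whether the amount of these messages moved within the first hour of insulin.

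RefSeq (assembly GRCr8) start sites were available for 59 of the 72 genes. A tract, defined as a C followed by at least 4 bases that are each C or T on the strand of the gene, stood exactly at the annotated start in 22 of 59 members (37.3%), against 3.11% of 27457 genes with a start in the table. Within 5 bases of the start it was present in 36 members (61.0%), against 19.0% of all genes. The subunits gave 7 of 24 small subunit genes and 15 of 35 large subunit genes with the tract at the start. Mitochondrial ribosomal protein genes, which serve the separate ribosome of that organelle, had it in 2 of 63 (3.17%). The windows below hold 15 bases before the annotated start and 20 from it, 5′ to 3′ on the strand of the gene, with the tract in capitals. They come from some of the genes described below and are shown because the tract is the sequence feature for which the family is known. The choice does not give the share of members with a tract. Rpl36, also described below, had no tract within 5 bases of its annotated start and is not shown. A window without capitals says only that no such run lies within 5 bases of that annotated start.
Rps26 (chr7:1643385-1643419, minus strand): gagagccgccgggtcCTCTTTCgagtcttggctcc
Rps7 (chr6:50999426-50999460, minus strand): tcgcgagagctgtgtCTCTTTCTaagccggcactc
Rps18 (chr20:4933730-4933764, plus strand): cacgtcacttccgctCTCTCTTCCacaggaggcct
Rplp1 (chr8:71290853-71290887, minus strand): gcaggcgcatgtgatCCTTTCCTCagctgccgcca
Rpl19 (chr10:83519049-83519083, plus strand): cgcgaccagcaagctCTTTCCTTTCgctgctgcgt
Rpl10a (chr20:6390518-6390552, plus strand): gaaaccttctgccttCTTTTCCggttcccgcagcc
Rpl13 (chr19:68062499-68062533, plus strand): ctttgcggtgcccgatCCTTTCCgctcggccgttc
Rps9 (chr1:74430418-74430452, minus strand): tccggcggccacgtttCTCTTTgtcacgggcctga
Rps10 (chr20:5700725-5700759, minus strand): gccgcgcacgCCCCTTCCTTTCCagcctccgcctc
Rpl3 (chr7:113507971-113508005, minus strand): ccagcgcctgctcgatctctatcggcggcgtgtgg
Rps6 (chr5:106420521-106420555, minus strand): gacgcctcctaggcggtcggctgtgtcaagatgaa

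Levels below are on the log2 scale, relative to the 75th percentile of processed signal on that array, and a change is the difference between such levels at a later time and at 0 min. A gene stands at its brightest probe. Between 50.87% and 56.45% of spots were well above background, and the 75th percentile lay between 253.5 and 300.2 on the arrays of 0 to 45 min and at 479.3 on the array of 60 min. The arrays of 0 to 45 min shared 1 slide, and the array of 60 min was on another slide with its own scan, so slide and time cannot be told apart at 60 min. Probes printed several times gave a median standard deviation between spots of 0.121 to 0.139 log2 units within an array, and so a technical standard deviation of a change of at most 0.197. That spread leaves out the culture, the extraction and the labelling. All 14 hepatocyte marker genes were well above background on all 5 arrays, with a summed level of 1100 to 1240 times the 75th percentile. Of 12 markers of other liver cells, 10 were on the array, with a summed level of 2.12 to 2.36. Of these, 4 (Cd68, Cdh5, Col1a1 and Krt19) were above background on all 5 arrays, and Epcam, Krt7, Lrat and Pecam1 were above it on none.

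The ribosomal protein messages stayed close to their level at 0 min throughout the hour. Their median log2 change was -0.001 at 15 min, -0.002 at 30 min, 0.056 at 45 min and 0.095 at 60 min. The median over all measured genes at the same times was 0.030, 0.025, 0.025 and 0.020. Read at the brightest probe, none of the 72 genes was 1.5-fold higher or lower at any time. The share of all measured genes past 1.5-fold was 2.02% at 15 min, 2.06% at 30 min, 2.81% at 45 min and 7.16% at 60 min. The extreme members at 60 min were Rpl37a at 0.48 and Rps20 at -0.52. Scaling to the spike-in transcripts in place of the 75th percentile turned the medians at 45 and 60 min to -0.135 and -0.150. It moved the median of all genes alike, by -0.190 at 45 min and -0.245 at 60 min, so the sign against 0 rests on the scaling. Relative to the median of all genes the members stood at 0.075 at 60 min under both scalings. That likeness was fixed in advance, since each scaling divides all signals of an array by the same factor. Over 11 alternatives the distance ran from 0.063 to 0.238, the highest under normexp background correction. Several of these alternatives also only rescale whole arrays and cannot move it.

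**Figure D1:**
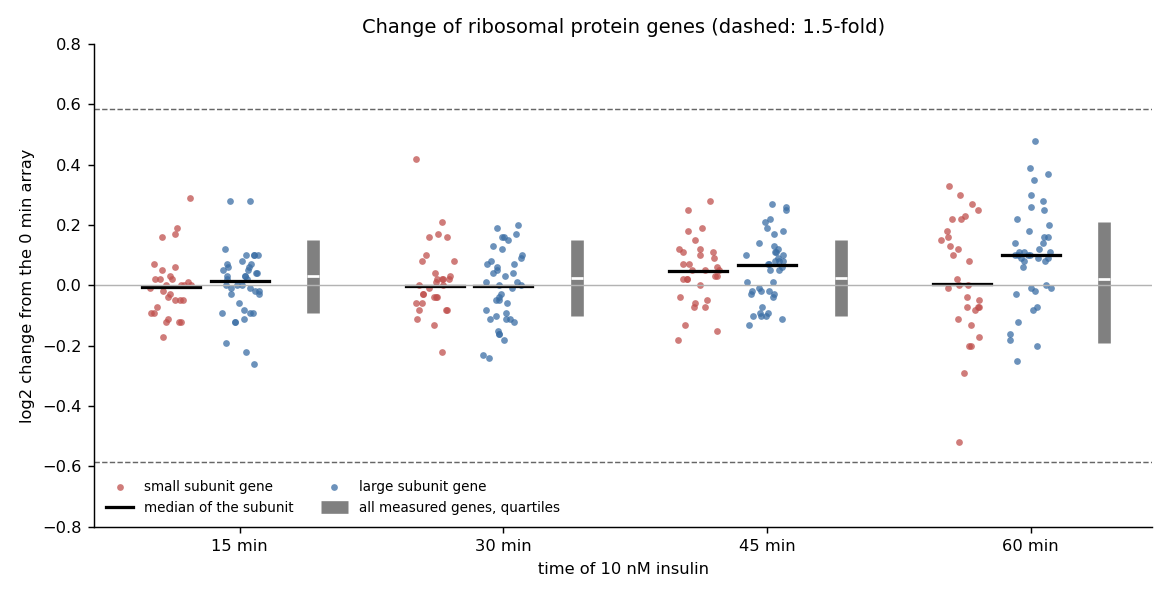
Log2 change from the 0 min array (y axis) of each ribosomal protein gene at 15, 30, 45 and 60 min of insulin (x axis), with small subunit genes in red, large subunit genes in blue, black bars at the median of each subunit, and grey bars for the quartiles of all measured genes with their median in white. All 72 genes lie within the dashed lines of 1.5-fold at every time, and the points are widest at 60 min, between -0.52 and 0.48.

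The members also lay close to each other. The standard deviation of the change across the 72 genes was 0.105, 0.119, 0.109 and 0.179 at 15, 30, 45 and 60 min, against 0.227, 0.237, 0.251 and 0.343 across all measured genes. The narrow spread is not particular to the members, since the 63 mitochondrial ribosomal protein genes had 0.122, 0.132, 0.132 and 0.199. Most ribosomal protein spots are bright, and between 89 and 104 of the 126 were read from the scan at low gain, against 1.46% to 2.64% of all spots. Members read at low gain on both arrays (62 to 64 genes) had standard deviations of 0.096, 0.108, 0.111 and 0.174. Other genes read at low gain on both arrays (448 to 523 genes) had standard deviations of 0.139, 0.172, 0.170 and 0.234. Of them, 0.216%, 0.446%, 0.658% and 1.53% were past 1.5-fold, so the count of 0 members is close to the share of bright genes. Their medians were 0.020, 0.050, 0.067 and 0.006, so at 45 min the other bright genes stood as far above 0 as the ribosomal protein genes, and at 60 min they did not. The part of brightness in the narrow spread was not tested beyond these values. Genes above 0 numbered 35, 35, 48 and 45 of 72 (48.6%, 48.6%, 66.7% and 62.5%), against 57.1%, 55.4%, 55.5% and 52.7% of all measured genes.

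A change of more than 2 technical standard deviations, 0.39 log2 units, was seen in Rps26 at 30 min and in Rps20 and Rpl37a at 60 min, and in no member at 15 or 45 min. That is 0.0%, 1.39%, 0.0% and 2.78% of members in order of time, against 6.27%, 6.86%, 8.02% and 19.4% of all measured genes. Between neighbouring times the median step was 0.007 for 30 min against 15 min, 0.055 for 45 min against 30 min and 0.031 for 60 min against 45 min. The step to 45 min was positive in 52 of 72 members, against 49.6% of all genes measured on both arrays. Among genes read at low gain on both arrays it was positive in 46 of 62 members and 233 of 444 other genes.

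The small subunit, which binds the message and decodes it, gave 31 genes with median changes of -0.005, -0.002, 0.047 and 0.004 at 15, 30, 45 and 60 min. The large subunit, which forms the peptide bond, gave 41 genes with medians of 0.015, -0.002, 0.069 and 0.102. At 60 min 29 of 41 large subunit genes and 16 of 31 small subunit genes were above 0. The ranges overlapped widely, from -0.25 to 0.48 and from -0.52 to 0.33, and both subunits share the same pair of arrays, so this difference has no test. Relative to the median of all genes at 60 min, the large subunit stood at 0.082 and the small subunit at -0.016. Over 11 alternatives these ran from 0.077 to 0.263 and from -0.021 to 0.191, so the sign for the small subunit changed with the processing.

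Rps6, the small subunit protein phosphorylated by the S6 kinases after insulin, stood at 9.19, 9.16, 9.23, 9.21 and 9.31 at 0, 15, 30, 45 and 60 min. Its probe lies at chr5:106165662-106165721 on the minus strand of rn4. No array differed from 0 min by more than 0.12, within the technical spread. Rps18, a common reference gene in expression work, stood at 8.95, 8.97, 9.05, 9.10 and 9.10. Rpsa, which is also known as a laminin receptor, was at 5.78, 5.66, 5.70, 5.73 and 5.78. Neither left a band of 0.15 log2 units over the hour.

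Rps27a, made as a fusion of ubiquitin with a small subunit protein, was at 7.88, 8.04, 8.05, 8.16 and 7.81. It was higher than at 0 min on the arrays of 15, 30 and 45 min and lower on that of 60 min. For Rps9, needed for accurate decoding in yeast, the levels were 6.69, 6.64, 6.70, 6.87 and 7.0. It was highest on the array of 60 min, at 1.23-fold of 0 min.

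At the other end, Rps20 (chr5:162082707-162082766, plus strand of rn4) stood at 9.19, 9.15, 9.27, 9.24 and 8.67. Its first 4 arrays lie within 0.12 of each other, and the array of 60 min alone is low, at 0.699-fold of 0 min. A second Rps20 probe was at 6.46, 6.30, 6.25, 6.49 and 6.33, a change of -0.13 at 60 min, so the size of the drop rests on the brighter probe. Rps10, located at the head of the small subunit, was at 6.68, 6.59, 6.60, 6.53 and 6.50, lower than at 0 min on all 4 later arrays. Its second probe was at 5.96, 5.99, 6.11, 6.10 and 5.52, higher than at 0 min on the arrays of 15, 30 and 45 min and lower on that of 60 min. Rps7, needed for processing of the small subunit RNA, was at 6.19, 6.14, 6.11, 6.11 and 5.99. The changes of the brightest probes of Rps10 and Rps7 at 60 min, -0.17 and -0.20, are near 1 technical standard deviation.

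In the large subunit, Rpl3 (minus strand of rn4, chr7:118317348-118318149, a span wider than the 60 bases of the probe) had the highest mean change of the family over 30, 45 and 60 min, 0.23. It encodes a protein close to the peptidyl transferase centre, and its levels were 6.38, 6.26, 6.58, 6.49 and 6.77. The array of 15 min is below that of 0 min and the other 3 are above it. Rpl13 (chr19:53440119-53440178, plus strand of rn4) was at 8.44, 8.48, 8.52, 8.63 and 8.79, with each array above the one before. Its other probe, upstream on the same strand, was at 8.08, 7.97, 8.11, 8.03 and 7.85, lowest at 60 min. The 2 Rpl13 probes thus differ in sign at 60 min, 0.35 for the brighter and -0.23 for the dimmer.

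Rpl36 was at 6.67, 6.96, 6.74, 6.94 and 6.95, higher than at 0 min on all 4 later arrays. Rpl37a, a zinc-binding protein of the large subunit, was at -1.64, -1.75, -1.69, -1.63 and -1.16. The probe that represents it is dim, and its change of 0.48 at 60 min (1.40-fold) comes from that array alone. Rpl7 was at 8.60, 8.33, 8.36, 8.47 and 8.65, and Rpl10a at 6.01, 5.79, 5.78, 5.91 and 6.09. These 2 were lowest at 15 and 30 min and back above the level of 0 min at 60 min. Rpl39, the small protein of the exit tunnel, was at 8.24, 8.24, 8.19, 8.31 and 7.99, low at 60 min alone.

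**Figure D2:**
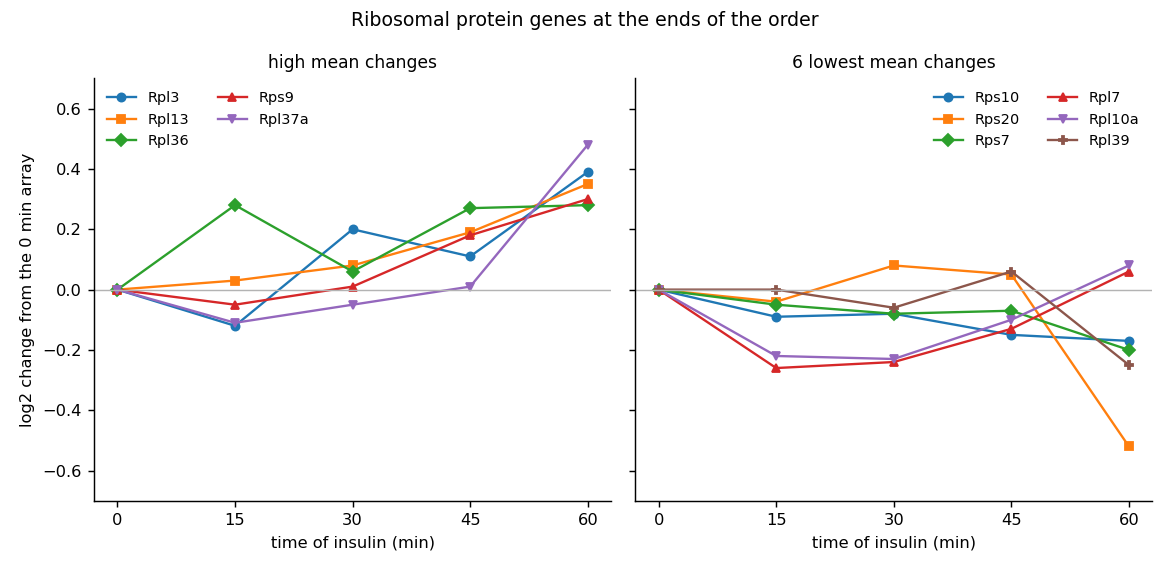
Log2 change from the 0 min array (y axis) against minutes of insulin (x axis) for 5 members with high (left) and the 6 with the lowest (right) mean change over 30, 45 and 60 min, 1 array per point. The curves stay between -0.26 and 0.28 up to 45 min and spread between -0.52 and 0.48 at 60 min.

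The acidic stalk proteins, which recruit translation factors to the ribosome, could be followed through Rplp1 and Rplp2. Rplp1 was printed 10 times on each array and is the member measured with the most spots. It stood at 9.14, 9.07, 9.04, 9.12 and 9.26, with a standard deviation between its 8 or 9 usable spots of 0.048 to 0.104. The difference of the spot means of 60 and 0 min was 0.12 with a standard error of 0.035 from the spots, an error that covers the noise of spots within the arrays and no difference between cultures or slides. Rplp2 was at 7.94, 7.92, 7.83, 7.91 and 8.20. Rpl5 and Rpl11, which with 5S RNA bind Mdm2 and so stabilise p53 when ribosome assembly fails, were at 7.80, 7.84, 7.79, 7.78 and 7.65 and at 8.27, 8.36, 8.42, 8.35 and 8.20. Rpl13a and Rpl32, both used as reference genes, were at 8.24, 8.27, 8.28, 8.28 and 8.36 and at 8.71, 8.76, 8.71, 8.88 and 8.70. Apart from Rplp2 at 60 min (0.26), no change of these 6 genes passed 0.17 at the brightest probe. The other probes of Rpl5 each changed by 0.18 at 60 min, against -0.16 for its brightest probe.

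The range of a gene over the 5 arrays, highest minus lowest, had a median of 0.23 log2 units in the ribosomal protein genes, 0.27 in 430 other genes read at low gain on all arrays and 0.36 in all 16707 genes measured on all 5 arrays. The 63 mitochondrial ribosomal protein genes had a median range of 0.27, and 3.17% of them had a range of 1.5-fold or more. Such a range was reached by 3 of 72 members (4.17%), against 6.74% of the other bright genes and 16.9% of all genes. The 3 are Rps26, Rps20 and Rpl37a, of which Rps26 and Rpl37a were read at low gain on no array. Rps26, at 4.84, 5.03, 5.27, 5.03 and 4.55, had the widest range, 0.71, and was named after its values were seen. It was highest at 30 min and lowest at 60 min, and its product contacts the message upstream of the start codon in the exit channel.

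The narrowest ranges, also named after their values were seen, were those of Rps2 (0.03), Rps3a (0.04), Rps4x (0.07), Rps13 (0.08) and Rpl14 (0.09). Rps2, a protein of the messenger entry channel, was at 8.79, 8.81, 8.81, 8.82 and 8.79. Rps3a was at 8.62, 8.60, 8.59, 8.59 and 8.58, and Rpl14 at 9.27, 9.23, 9.26, 9.18 and 9.25. Their ranges are under the technical standard deviation of a change. Rps19 and Rps24, small subunit genes mutated in human Diamond-Blackfan anaemia, were at 7.08, 7.08, 7.04, 7.12 and 6.99 and at 7.91, 8.20, 7.93, 8.0 and 8.16, the second with 2 high arrays, at 15 and 60 min. Rpl3l was at 0.01, 0.29, 0.08, 0.02 and 0.31.

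**Figure D3:**
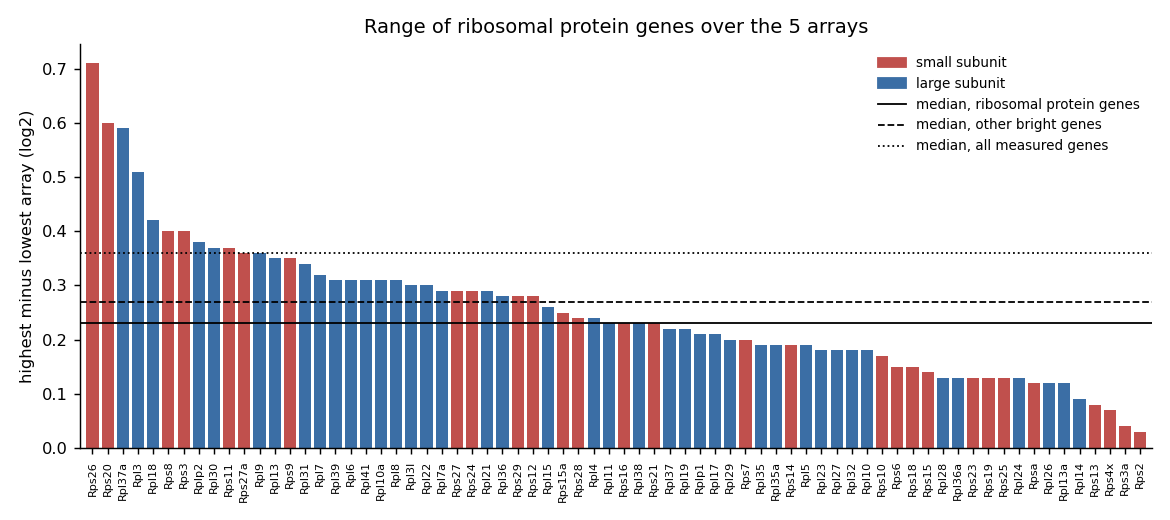
Highest minus lowest of the 5 arrays in log2 units (y axis, from 0) for 70 of the 72 genes (x axis), small subunit in red and large subunit in blue, with lines at the medians of the ribosomal protein genes, of other bright genes and of all measured genes. Rps26, Rps20 and Rpl37a stand highest at 0.71, 0.60 and 0.59, and Rps2 lowest at 0.03.

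A slope on time over the 5 arrays, fitted with limma across 24003 probes with 3 residual degrees of freedom, called no member and no probe at all at a 5% false discovery rate (0.0% of probes). The smallest adjusted p among the 108 member probes was 0.5. At an unadjusted p under 0.05 it picked 5 member probes, all upward, against 9.01% of all probes (5.63% upward and 3.38% downward). Probes of Rpl13, Rps9, Rpl21 and Rpl3 are among them. The Rpl21 probe is a dimmer one, and the brightest probe of that gene had a slope of 0.035 log2 units per hour. The slope of the brighter Rpl13 probe was 0.341 ± 0.098 log2 units per hour (SE, limma adjusted p = 0.5), and that of Rpl3 was 0.403 ± 0.145 (SE, limma adjusted p = 0.534). The dimmer Rpl13 probe had a slope of -0.158. The median slope was 0.084 per hour over member probes and 0.015 over all probes. Without the 60 min array it was 0.042, against 0.018 over all probes.

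Of the 72 genes, 46 had 1 probe and 26 had more, up to 5 for Rpl21. Probes of the same gene gave a measure of how far a change can be read. Their largest difference within a gene had a median over the 26 genes of 0.06 at 15 min, 0.12 at 30 min, 0.11 at 45 min and 0.22 at 60 min. They differed in sign in 12, 15, 14 and 12 of the 26 genes at these times. In Rpl19, a large subunit protein that reaches across to the small subunit, the brighter probe changed by 0.22 and the other by -0.31 at 60 min. Rps10 had both probes lower at 60 min, with changes of -0.17 and -0.44. In Rpl18 both were higher, by 0.37 and 0.27. No gene had probes that differed by 0.5 or more in mean change over 30, 45 and 60 min, with a largest difference of 0.29. At single times the largest differences within a gene were wider, 0.61 at 15 min, 0.41 at 30 min, 0.37 at 45 min and 0.58 at 60 min. With the mean over probes in place of the brightest probe, the medians of all members at 45 and 60 min were 0.046 and 0.080.

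**Figure D4:**
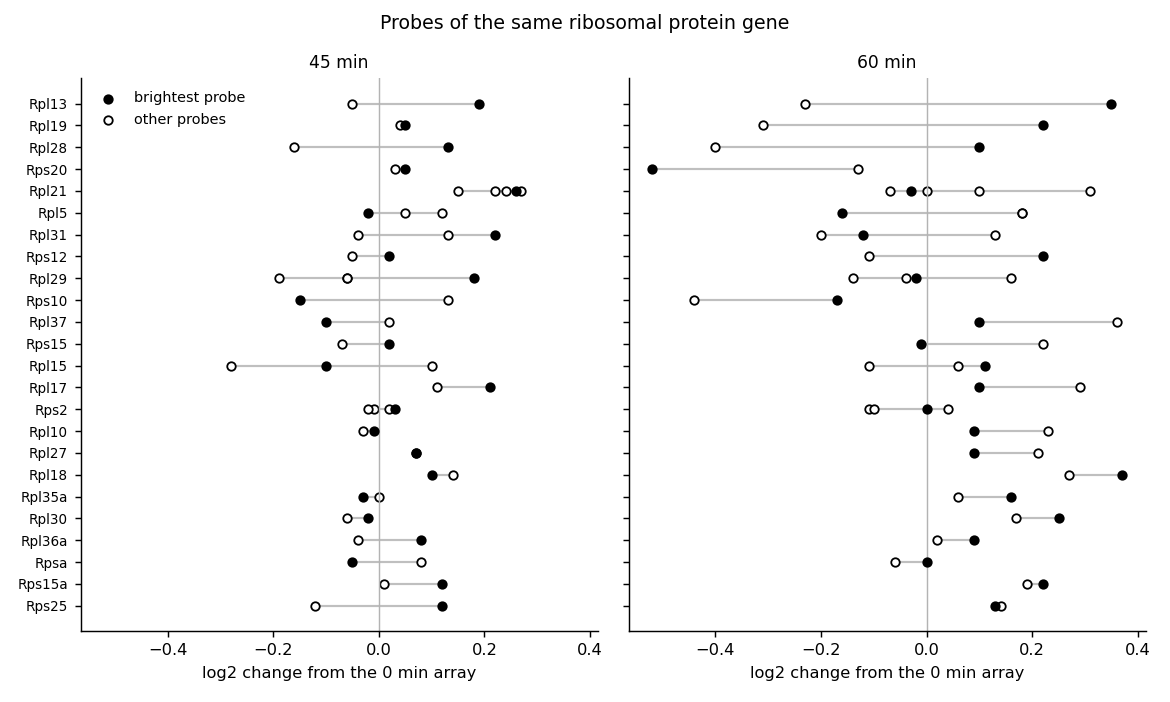
Log2 change from the 0 min array (x axis) of every probe of 24 of the 26 ribosomal protein genes with more than 1 probe (y axis), at 45 min (left) and 60 min (right), with the brightest probe filled, the others open and a line joining the probes of a gene. The lines are longer at 60 min, with a median difference of 0.22 over the 26 genes, than at 45 min, with 0.11, and in Rpl13 and Rpl19 they cross 0.

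In 4 genes a second probe, designed from an expressed sequence tag, lies on the strand opposite to the representing probe in the rn4 coordinates of the array. In Rps25 the 2 probes cover the same 60 bases, chr8:47375104-47375163. The sense probe, on the plus strand, was at 5.52, 5.57, 5.52, 5.64 and 5.65, and the opposite probe, on the minus strand, at 4.04, 3.91, 3.79, 3.92 and 4.18. In Rps15 and Rpl37 the 2 probes do not overlap (Rps15, opposite probe at chr7:10927645-10927704, plus strand, and Rpl37 at chr2:54304211-54304270, minus strand). The opposite probes were well above background on every array, and at 60 min they changed by 0.14 in Rps25, 0.22 in Rps15 and 0.36 in Rpl37. Whether their signal is antisense RNA or labelled copy of the sense message was not tested.

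Ribosomal protein genes have many processed copies in mammalian genomes, and a probe can match several. For 10 of the 59 genes with a RefSeq start, the chromosome that the array design gives for the representing probe is not that of the gene, compared by chromosome name alone. Among the genes named here these are Rps7, Rps10, Rpl10a, Rpl21 and Rpl36, the last placed on unassigned sequence. Values of these genes may include RNA of such copies and are uncertain to that extent. The 13 genes without a RefSeq start, Rps20 and Rpl7 among them, were not compared, so the placement of their probes was not checked.

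Several ribosomal proteins fall outside the name rule on this array. The stalk protein Rplp0, another reference gene, carries an older name there and was at 4.24, 4.39, 4.22, 4.19 and 4.36. Fau, which encodes a fusion of a ubiquitin-like protein with a ribosomal protein, was at 7.85, 7.93, 7.89, 7.89 and 8.14. Rack1, a signalling scaffold on the small subunit, was at 5.72, 5.67, 5.70, 5.74 and 5.44. Like the members, none of these 3 was 1.5-fold from 0 min at any time, and the largest changes, 0.29 in Fau and -0.28 in Rack1, were at 60 min. Rpl7l1, a nucleolar relative of Rpl7, was at 2.84, 2.49, 2.52, 2.55 and 2.50, lower on all 4 later arrays by 0.29 to 0.35. The paralogs Rps27l and Rpl22l1 were not matched to a probe.

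Groups related to the ribosome were set beside the members at the same times. The 63 mitochondrial ribosomal protein genes had medians of 0.019, 0.002, 0.023 and 0.003, and none was past 1.5-fold. Among them Mrpl42 had a mean change of 0.29, Mrps34 of 0.26 and Mrps14 of -0.24 over 30, 45 and 60 min. The 16 other genes of translation with reported TOP tracts, mostly initiation and elongation factors, had medians of 0.005, 0.023, 0.012 and 0.127. In the RefSeq windows, 0 of the 11 with an entry had the tract at the annotated start and 5 had it within 5 bases. In that list 10 of 16 genes were above 0 at 60 min and only Eif2s3 was past 1.5-fold, at 2.63 against 2.01 at 0 min (1.53-fold). Eef1b2, an exchange factor of elongation, was at 7.31 at 60 min against 6.95 at 0 min, and the histone chaperone Nap1l1 at 4.71 against 4.98.

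The ribosome assembly list (22 genes, 21 of them at 60 min) had medians of -0.074, 0.033, 0.106 and 0.138, and 16 of 21 were above 0 at 60 min. Rrs1, an assembly factor of the large subunit, was at 2.45, 2.35, 2.67, 2.74 and 3.07, and at 1.54-fold it was the only member of that list past 1.5-fold at 60 min. Ubtf, an activator of ribosomal RNA transcription, was at 1.28, 1.56, 1.67, 1.69 and 1.75, above 0 min on all 4 later arrays. Rrn3, which recruits RNA polymerase I, was at -1.50, -1.87, -2.02, -1.88 and -1.61, lowest at 30 min. The list of mTORC1 and S6 kinase components had medians of -0.013, 0.039, 0.020 and 0.183, with none past 1.5-fold. There the mTOR inhibitor Deptor was at -1.65, -1.48, -1.51, -1.21 and -1.15. Its activator Rheb was at 3.36, 3.23, 3.60, 3.44 and 3.67, and the scaffold Rptor at -3.03, -3.15, -3.16, -3.14 and -3.35. All these lists share the 0 min array with the members, and no difference between them was tested.

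**Figure D5:**
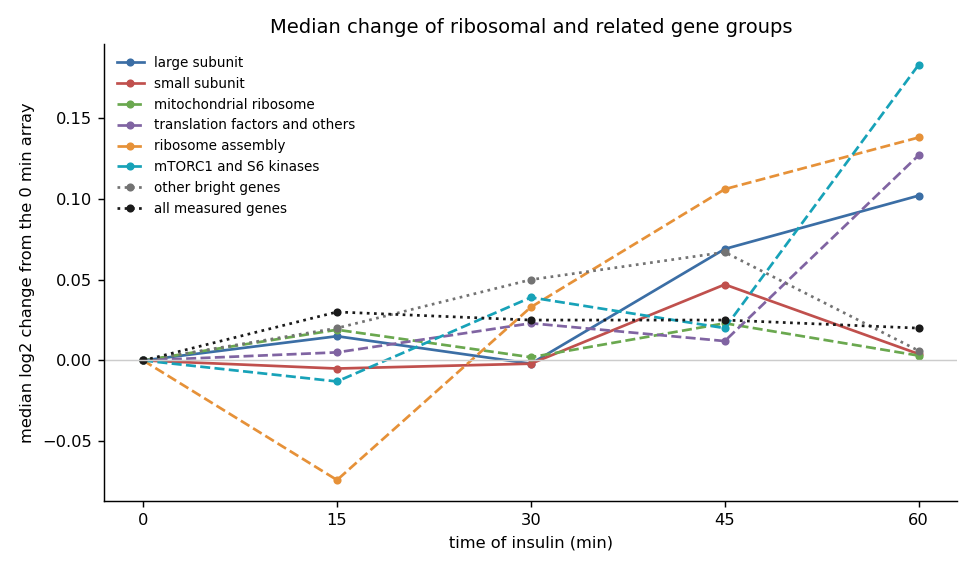
Median log2 change from the 0 min array (y axis) against minutes of insulin (x axis) for the 2 ribosomal subunits (solid), 4 related groups (dashed), and other bright genes and all measured genes (dotted), with 1 array per time. At 60 min the large subunit stands at 0.102 and the small subunit at 0.004, between the mTORC1 list at 0.183 and the mitochondrial ribosome at 0.003.

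Members with and without the start-site tract had like medians. The 22 genes with the tract at the annotated start had -0.015, -0.020, 0.035 and 0.095 at 15, 30, 45 and 60 min. The 14 genes with it within 5 bases had 0.020, 0.015, 0.070 and 0.085, and the 23 with none had 0.020, 0.000, 0.050 and 0.110. At 60 min the 22 genes ran from -0.29 to 0.48 and the 23 from -0.20 to 0.39, so the classes overlapped over most of their range.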

How the data were processed

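The scanner files hold intensity read with Agilent Feature Extraction 9.5.3.1 on rat design 014879 (rn4), background-subtracted and corrected for a trend within each array, per the file headers. The deposited series matrix holds log2 values made by a step not given here. Its columns matched the scaled log2 levels described next once each probe was centred (r of 0.9994 to 0.9999, column medians 0.0, scale and direction thus settled), and it served as an alternative. Per the labels, 700 ng of RNA was labelled with Cy3.

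Controls were dropped, as were the 100 to 163 spots per array flagged as outliers. The processed signal was divided by the array's 75th percentile, and the spots of a probe were averaged. The average was floored at the array's lowest signal well above background, and log2 was taken. For the trend the floor was common to all arrays, the highest of the array floors. A gene stood at its brightest probe. Names came from the files, a RefSeq table (GRCr8) by accession (10835 probes) or symbol (8674 probes), and 21503 probes kept the file's name. Counts and medians over all measured genes take those well above background on both arrays of a comparison (17161 to 17832 genes). The trend was fitted with limma 3.58.1 (R 4.3.3) and Benjamini-Hochberg adjustment, and the fit was tested on simulated data. Tables and plots were made in Python 3.11.15 (pandas 2.3.3, matplotlib 3.10.9).

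The members and the gene lists were chosen with earlier results of these data known. Named genes are the 6 members with the highest and the 6 with the lowest mean change over 30, 45 and 60 min, a fixed group (Rps6, stalk and reference genes among them) and up to 3 genes of each list. Other names were added after their values were seen, and a few genes that enter the counts are not reported here. The labels give no culture or replicate numbers. Exons were not assigned, since no genome was used here, but 23 of the 108 member probes of 60 bases span more than 60 bases in rn4. The number of arrays limits the precision.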

Additional observations from a re-analysis of the deposited data

How the results depend on the processing

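Medians of the 72 genes and the subunits kept within the spread of a change under quantile and median scaling, a percentile over detected probes, the series matrix, both filters on dim probes, kept outlier spots, the mean over probes and leaving out paralogs. They moved under 2 alternatives. Scaling to 8 spike-in transcripts gave, in order of time from 15 to 60 min, medians of -0.156, -0.131, -0.135 and -0.150 for all members, -0.161, -0.132, -0.144 and -0.241 for the small subunit, and -0.141, -0.131, -0.122 and -0.143 for the large subunit, with 1 gene past 1.5-fold at the last time. It moved the median of all genes by -0.156, -0.130, -0.190 and -0.245. Distances from that median stayed within 0.001, as they must when all signals of an array are divided by the same factor. Normexp background correction gave -0.700, -0.702 and -0.697 at 15 min with 62 genes past 1.5-fold. Refitted without 6 spots of local background over 500, an alternative chosen after seeing the data, it gave 0 such genes at 15 min. With 15 min as the baseline, 1 gene (Rpl37a) was past 1.5-fold at 60 min. The median at 60 min ran from -0.150 to 0.173 over 14 alternatives, the upper end under normexp. The trend called no member in any of 18 alternatives, while over all probes it called 43 with series matrix values, 4 under quantile scaling, 4 with detection on all 5 arrays and 1 each under no filter and spike-in scaling. Of member probes at an unadjusted p under 0.05, 5 in the trend as reported, spike-in scaling gave 15, all downward (13.9%, against 17.8% of all probes). Without the 15 min array there was 1 (0.926%, against 6.22%), and without the 0 min array 10, 1 of them downward (9.26%, against 11.9%). All member probes were well above background, but some were dim, among them the probe that represents Rpl37a. Whether signal level limits such changes was not tested. The single array per time limits all of them. No paired analysis was possible because each time has 1 array.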
